A study of Homo sapiens with 3 samples.

Results

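The DLX genes encode homeodomain transcription factors related to Distal-less of Drosophila. The contacts described here are those of the promoters of DLX1, DLX2, DLX3, DLX4, DLX5 and DLX6 in hESC-CMs, which are cardiomyocytes grown from WA09 (H9), a line of human embryonic stem cells. Promoter capture Hi-C (PCHi-C) fixes the chromatin, digests it with HindIII, a restriction enzyme, joins DNA ends that are near each other in the nucleus and selects the joined products that carry a promoter. It was run on 3 biological replicates of 1 untreated condition and 1 cell line, so no groups were compared and no test between conditions was made. The cells were unmodified, were enriched for cardiomyocytes in lactate medium without glucose, and came from a single stem cell line, which limits them as a model of other genetic backgrounds.

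A promoter fragment was taken as a HindIII fragment listed as a captured end that holds an annotated transcript start of a DLX gene. Each of the 6 genes had 1 such fragment, so 6 of the 19075 promoter fragments with a call in the series were used. A contact is a pair of fragments called by CHiCAGO in at least 1 replicate, whichever of its ends was listed first. The 6 fragments had 183 of the 200587 contacts of the series. The CHiCAGO score grows with the excess of read pairs over what is modelled for fragments of that kind at that distance, and no pair under a score of 5 is listed. A pair missing from a replicate is therefore not shown to be absent. Read counts and depth were not analysed here. The 3 replicates listed between 109731 and 112473 calls each.

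In the human genome the DLX genes lie as 3 pairs whose members are transcribed towards each other, DLX1 with DLX2, DLX3 with DLX4 and DLX5 with DLX6, and each pair lies on a chromosome that also carries a HOX cluster. DLX1 and DLX2 are known for the development of forebrain interneurons, DLX3 for skin, hair, teeth and bone, DLX4 for placenta, and DLX5 and DLX6 for the lower jaw, the limb, the inner ear and bone. Enhancers between and far outside the members of a pair are known to act on both, and coding exons of DYNC1I1, which encodes an intermediate chain of the motor protein dynein, are known as limb enhancers of DLX5 and DLX6 in a region linked to split hand/foot malformation. None of the 6 is a marker of cardiomyocytes, and expression was not analysed here. The labels state that the purity of the cells was checked with MYH7 and TNNT2, which contact calls cannot check.

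The fragments that the results turn on are given on GRCh37. The DLX5 promoter fragment is chr7:96653663-96657880 and that of DLX6, which also holds a start of the antisense gene DLX6-AS1, is chr7:96632605-96644983. Their highest shared score lay at chr7:95701863-95705860, a fragment with exon 15 of DYNC1I1. The first sequence below is that exon in capitals with its intronic flanks in lower case, from chr7:95705290-95705588 on the plus strand, and is shown because it is the coding part of the fragment that DLX5 contacted at its highest score. The other 3 are whole HindIII fragments that a DLX promoter contacted in all 3 replicates. They are printed because they are short enough to give the contacted DNA in full, with the AGCTT left by the enzyme in capitals. They are chr7:95712489-95712666, contacted by DLX5 and DLX6 in another intron of DYNC1I1, and chr2:172564774-172564938 and chr2:172567845-172568091, contacted by DLX2 in introns of DYNC1I2. An intergenic fragment of 172 bp, chr2:172423040-172423211, was also contacted by DLX2 in all 3 replicates and is not printed.
DYNC1I1 exon 15: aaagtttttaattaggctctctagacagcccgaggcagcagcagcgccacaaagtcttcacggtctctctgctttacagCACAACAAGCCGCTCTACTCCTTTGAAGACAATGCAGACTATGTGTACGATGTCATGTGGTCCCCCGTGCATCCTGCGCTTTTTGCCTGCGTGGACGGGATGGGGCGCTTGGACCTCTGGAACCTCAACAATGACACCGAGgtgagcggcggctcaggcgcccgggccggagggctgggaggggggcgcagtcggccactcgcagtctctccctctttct
DYNC1I1 intron: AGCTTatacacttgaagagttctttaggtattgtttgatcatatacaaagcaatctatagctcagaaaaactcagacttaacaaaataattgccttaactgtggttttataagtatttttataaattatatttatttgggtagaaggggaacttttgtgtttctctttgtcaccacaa
DYNC1I2 intron, first: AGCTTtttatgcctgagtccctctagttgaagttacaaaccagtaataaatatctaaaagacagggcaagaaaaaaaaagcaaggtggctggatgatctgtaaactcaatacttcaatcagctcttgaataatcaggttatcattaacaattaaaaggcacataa
DYNC1I2 intron, second: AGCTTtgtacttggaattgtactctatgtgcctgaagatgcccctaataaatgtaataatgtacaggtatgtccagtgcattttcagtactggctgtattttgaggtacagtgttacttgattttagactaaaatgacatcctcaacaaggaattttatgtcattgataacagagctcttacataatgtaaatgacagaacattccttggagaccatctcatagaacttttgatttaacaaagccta
The DYNC1I1 exon had a GC content of 55.3%, and the 3 whole fragments had GC contents of 29.2%, 33.9% and 34.8%. All 139 fragments used, the 6 promoter fragments and the 133 they contacted, had both ends at a HindIII site.

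The 6 promoters differed widely in how many contacts they had. DLX5 had 39, 31 and 38 contacts in replicates 1, 2 and 3, a mean of 36 ± 4.36 (SD, n = 3). DLX6 had 37, 27 and 32, a mean of 32.0 ± 5.00 (SD, n = 3). DLX5 had more than DLX6 in each replicate, by 2, 4 and 6 contacts, a mean difference of 4 ± 2 (SD, n = 3), although their ranges overlapped. In the calls on the merged replicates the order was reversed, with 44 contacts for DLX5 and 47 for DLX6. DLX2 had 19, 30 and 19 contacts, a mean of 22.7 ± 6.35 (SD, n = 3), and DLX3 had 19, 18 and 19, a mean of 18.7 ± 0.577 (SD, n = 3). DLX2 and DLX3 were equal in replicates 1 and 3, and DLX2 had 12 more in replicate 2. On the merged replicates DLX3 had more, with 43 contacts against 33 for DLX2. DLX6 had more contacts than DLX2 in replicates 1 and 3, and 3 fewer in replicate 2. DLX1 had 14, 10 and 10 contacts, a mean of 11.3 ± 2.31 (SD, n = 3), below every replicate of DLX2 and DLX3. DLX4 had 0, 1 and 1, below every replicate of the other 5 genes.

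**Figure D1:**
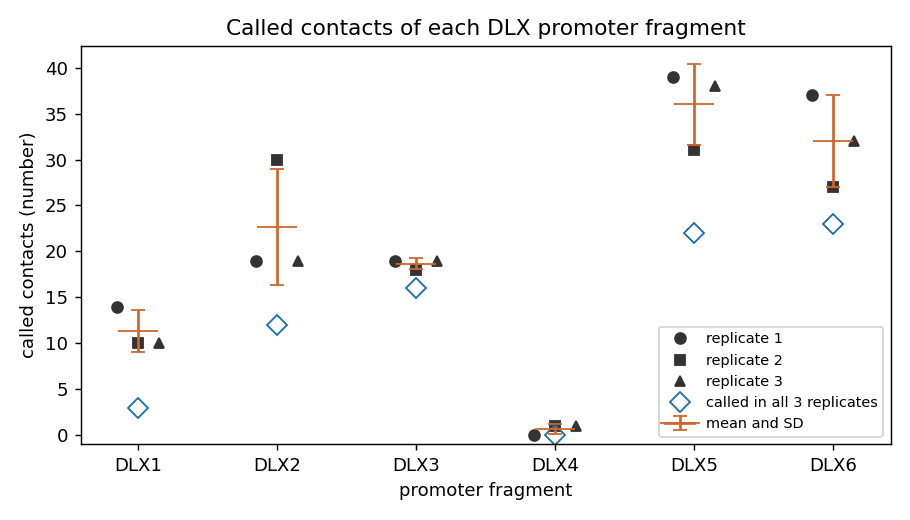
Number of called contacts (vertical axis) of the promoter fragment of each DLX gene (horizontal axis). Black symbols are the 3 replicates, orange bars the mean and SD (n = 3), and blue diamonds the contacts called in all 3 replicates, which run from 0 for DLX4 to 23 for DLX6. DLX5 and DLX6 stand highest, and DLX4 lies at 0 or 1 in each replicate.

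The promoter fragments of the series with a call had a median of 6 contacts over the union of the replicates (quartiles 3 and 14). Captured fragments without any call are left out of these values and of the shares that follow. DLX5 had 55 contacts, more than 97.9% of the promoter fragments with a call. DLX6 had 43, DLX2 36, DLX1 24 and DLX3 23, each above the upper quartile. DLX4 had 2, and 9.62% of promoter fragments had fewer. The plot of contacts per gene shows that the order changes once only contacts in all 3 replicates are counted, with 23 for DLX6, 22 for DLX5, 16 for DLX3, 12 for DLX2, 3 for DLX1 and 0 for DLX4. The median promoter fragment of the series had 1 such contact, and 48.1% had none.

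All 3 replicates called 76 of the 183 DLX contacts, or 41.5% (95% Wilson interval 34.6 to 48.8%, which covers counting error only), 29 were called in 2 replicates and 78 in 1. Over all contacts of the series the share in all 3 replicates was 24%. The share differed among the genes. It was 69.6% for DLX3, 53.5% for DLX6, 40% for DLX5, 33.3% for DLX2, 12.5% for DLX1, which is below the share of the series, and 0% for DLX4 with 0 of 2 contacts (95% Wilson interval 0 to 65.8%). The intervals of DLX3 (49.1 to 84.4%) and DLX1 (4.34 to 31.0%) did not overlap. Contacts of 1 promoter often fall in neighbouring fragments, so they are not independent of each other.

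The DLX contacts all lay on the same chromosome and nearly all on the same side, and those of DLX5 and DLX6 were the longest by median. None of the 183 joined different chromosomes, against 3.87% of all contacts. The median distance between fragment midpoints was 986 kb for DLX5 and 1014 kb for DLX6, against 369 kb for DLX1, 401 kb for DLX2, 206 kb for DLX3, 237 kb for DLX4 and 716 kb for all contacts of the series on 1 chromosome. Over the whole family the median was 902 kb, which rests on the 98 contacts of DLX5 and DLX6 and was 596 kb on the merged calls. More than 1 Mb was spanned by 55 contacts. Of the 183, 176 ran from the promoter towards lower coordinates of the chromosome and 7 towards higher ones. All 76 contacts in all 3 replicates ran towards lower coordinates, for genes of either strand. They came from only 3 loci, each on its own chromosome, so they are not independent of each other. How often contacts lie on 1 side only was not counted over the series.

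The 2 members of a pair were not called with each other at any of the 3 loci. The promoter fragments of DLX1 and DLX2 lie 21.4 kb apart, those of DLX3 and DLX4 26.2 kb and those of DLX5 and DLX6 17.0 kb. None of these 3 pairs was listed in a replicate or in the calls on the merged replicates. Among all pairs of promoter fragments of the series that lie 15 to 30 kb apart, 7.27% were called in at least 1 replicate, so a pair without a call is the common case at this spacing.

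DLX5 and DLX6 reached into the body of DYNC1I1, about 1 Mb away. Of the 55 DLX5 contacts 44 overlapped this gene, as did 40 of the 43 of DLX6. Among the contacts in all 3 replicates these were 20 of 22 for DLX5 and 23 of 23 for DLX6. DYNC1I1 lies from 95401818 to 95739634 on chromosome 7, beyond 2 other genes. SLC25A13, which encodes citrin, an aspartate and glutamate carrier of mitochondria, held 6 contacts of DLX5 and 1 of DLX6, none of them in all 3 replicates. SEM1, which encodes a small subunit of the proteasome and lies nearer to the pair, was not contacted by either promoter. The nearest contact of DLX5 lay at 592 kb and that of DLX6 at 594 kb. Of the promoter fragments of the series with a contact on the same chromosome, 71.7% had one nearer than either.

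The contacts within DYNC1I1 gathered in 2 stretches. The farther stretch ran from 95525615 to 95577168 with 19 contacted fragments, of which DLX5 contacted 16 and DLX6 all 19. Both genes contacted 11 of these in all 3 replicates. The nearer stretch ran from 95683288 to 95731807 and held 17 contacted fragments, of which DLX5 contacted 16 and DLX6 15, with 7 contacted by both in all 3 replicates. No exon of DYNC1I1 lay in the fragments of the farther stretch that both genes contacted in all 3 replicates, while the nearer one holds exons 15, 16 and 17.

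The fragment with exon 15, whose sequence is given above, scored 31.95, 26.76 and 26.5 with DLX5 in replicates 1, 2 and 3, a mean of 28.4 ± 3.07 (SD, n = 3) at 952 kb. With DLX6 it scored 15.89, 14.08 and 14.14, a mean of 14.7 ± 1.03 (SD, n = 3). Each DLX5 score there lay above each DLX6 score. The fragment with exon 16, from 95708779 to 95712488, scored 16.65, 16.75 and 15.18 with DLX5 and 6.49, 6.02 and 6.7 with DLX6, again without overlap. The fragment with exon 17, from 95725604 to 95727774, was weaker, called with DLX5 in 2 replicates at a mean of 5.96 and with DLX6 in 1 replicate at 7.15. Exon 10 lies between the 2 stretches, and its fragment was called with DLX6 in all 3 replicates at a mean of 5.48 and with DLX5 in 1 replicate at 5.47.

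In the farther stretch the highest DLX5 scores lay in introns. The fragment from 95540879 to 95543530 scored 19.09, 27.07 and 22.47 with DLX5, a mean of 22.9 ± 4.01 (SD, n = 3) at 1114 kb. The fragment from 95544559 to 95545345 scored 18.24, 18.08 and 19.64, and its neighbour from 95545346 to 95546601 scored 14.29, 20.77 and 19.01. The fifth of the highest DLX5 contacts lay in the nearer stretch, from 95712667 to 95713217, next to the short intronic fragment printed above, at scores of 18.62, 15.56 and 17.91. The printed fragment itself, only 178 bp long, scored 15.95, 10.45 and 8.84 with DLX5 and 6.75, 7.6 and 8.3 with DLX6.

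The highest mean score of DLX6 belonged to the promoter fragment of DYNC1I1 itself, from 95401032 to 95403784 at 1236 kb. The 3 replicates scored it 6.79, 16.21 and 24.72, a mean of 15.9 ± 8.97 (SD, n = 3), so replicate 1 stood far below replicate 3. DLX5 was not called with this fragment in any replicate. After the exon 15 fragment, the next DLX6 contacts were the intronic fragments from 95543531 to 95544558, at 9.26, 13.74 and 16.5, from 95705861 to 95708778, at 14.26, 12.6 and 11.58, and from 95544559 to 95545345, at 16.26, 8.55 and 12.9. All of these were also contacted by DLX5 in all 3 replicates. Outside DYNC1I1, DLX5 alone had contacts in all 3 replicates, at 2 adjoining fragments between SLC25A13 and SEM1. The one from 96043258 to 96043608 scored 5.74, 5.96 and 6.81, and the one from 96043609 to 96045117 scored 10.95, 10.73 and 5.16. DLX6 was called with the second of them in replicate 1 at 5.7. On the merged calls DLX6 was called with both, at 5.97 and 7.96, against 8.67 and 12.94 with DLX5.

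**Figure D2:**
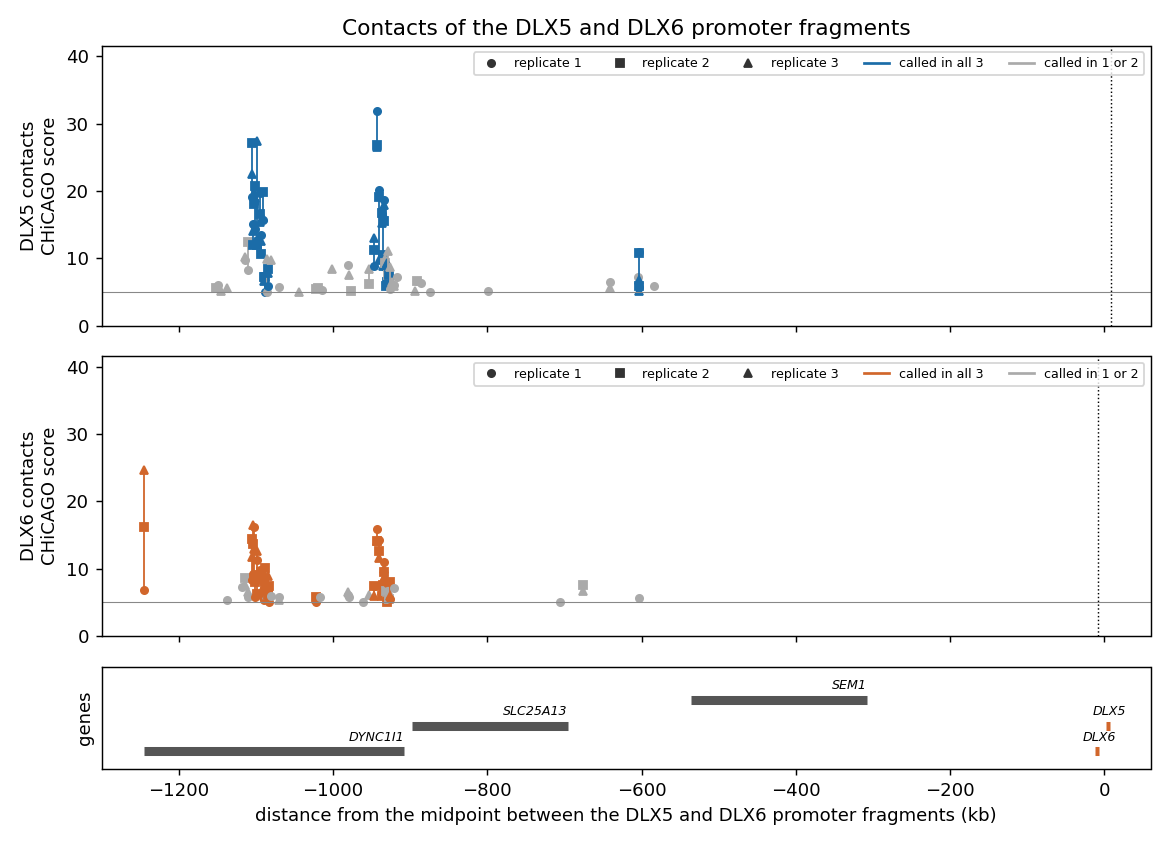
CHiCAGO score of each contact of DLX5 (top) and DLX6 (middle) against its distance in kb from the midpoint between both promoter fragments, with the genes drawn to scale (bottom). Symbols are replicates, joined by a line per contact, coloured where all 3 replicates called it and grey where 1 or 2 did. The horizontal line marks the lowest listed score of 5 and the dotted line the promoter fragment. The coloured contacts of both genes gather in 2 stretches of DYNC1I1, and none lies within 592 kb.

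DLX5 and DLX6 contacted largely the same fragments. Of the 63 fragments contacted by either, 35 were contacted by both, which is 63.6% of the DLX5 list and 81.4% of the DLX6 list. Among contacts in all 3 replicates 18 were shared, which is 81.8% of the 22 of DLX5 and 78.3% of the 23 of DLX6. Of the 5 fragments that only DLX6 contacted in all 3 replicates, 3 were called with DLX5 in 1 or 2 replicates. Over the distances of 900 to 1200 kb that hold most of these contacts, all 3 replicates called 20 of 46 DLX5 contacts (43.5%) and 22 of 39 DLX6 contacts (56.4%). The share over all contacts of the series at these distances was 23.3%.

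At most of the 18 fragments that both called in all 3 replicates, DLX5 scored higher. The median score in replicates 1, 2 and 3 was 15.4, 13.8 and 14.6 with DLX5 and 8.20, 8.62 and 8.97 with DLX6. DLX5 had the higher score at 15, 15 and 14 of the 18 fragments in the 3 replicates. By the mean of the replicates it was higher at 17, and the exception was the fragment from 95558760 to 95560172, with 6.49 ± 1.28 against 8.22 ± 1.62 (SD, n = 3 each). The difference ran up to 13.7 at the exon 15 fragment. At the 3 fragments where the mean was below 8 with both genes it differed by 0.21, 0.37 and 1.24, less than the larger of the SDs at each. The difference was also below the larger SD at the higher-scoring fragments from 95543531 (0.527), 95546602 (7.28) and 95705861 (3.54). Each DLX5 score lay above each DLX6 score at 11 of the 18 fragments. In the calls on the merged replicates DLX6 scored higher at the fragment from 95558760, with 15.21 against 9.75. It was also higher at those from 95543531 (21.95 against 19.34), 95557435 (12.6 against 10.78) and 95561933 (10.67 against 9.35). DLX5 was higher at the rest.

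**Figure D3:**
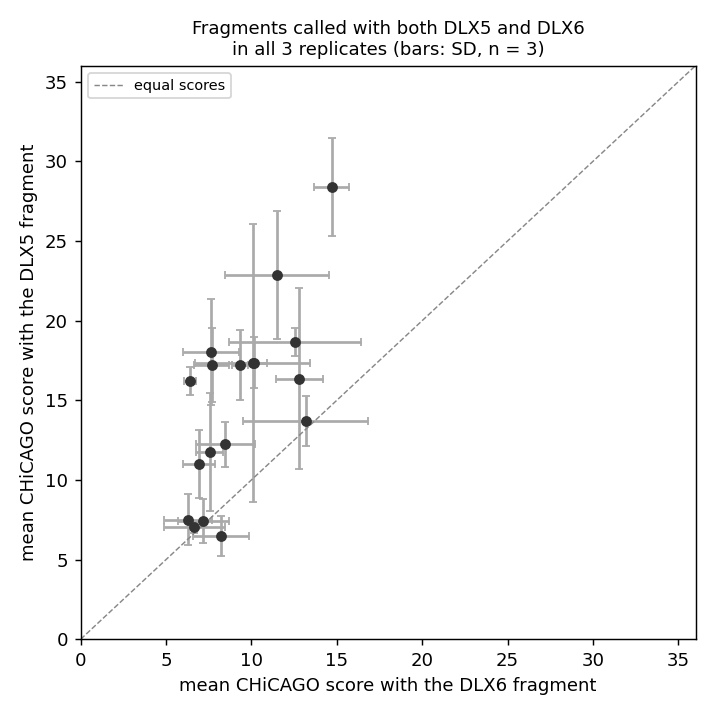
Mean CHiCAGO score with DLX5 (vertical axis) against that with DLX6 (horizontal axis) at the 18 fragments called with both in all 3 replicates. Bars are SDs (n = 3) and the dashed line marks equal scores. All but 1 of the points lie above the line, and the highest is the DYNC1I1 exon 15 fragment at 28.4 and 14.7.

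DLX1 and DLX2 showed a pattern of the same kind on chromosome 2, at shorter distances and lower scores. Their contacts reached the bodies of DYNC1I2, which encodes the paralogue of the dynein chain at the DLX5 and DLX6 locus, and of SLC25A12, which encodes aralar, the paralogue of citrin. The neighbours that the contacts reach are thus of the same 2 gene families at both loci. Of the 13 fragments that DLX1 or DLX2 contacted in all 3 replicates, 7 overlapped DYNC1I2 and 3 SLC25A12. At the other locus 25 of 27 overlapped DYNC1I1 and 0 SLC25A13, so the carrier gene was contacted in all 3 replicates at 1 locus only.

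DLX2, whose promoter fragment is chr2:172966044-172973100 and also holds a start of DLX2-DT, had 12 contacts in all 3 replicates, and their mean scores ran from 5.51 to 9.85. The highest lay between DYNC1I2 and SLC25A12, from 172626475 to 172635456 at 339 kb, and scored 11.82, 8.36 and 9.38, a mean of 9.85 ± 1.78 (SD, n = 3). The fragment from 172664112 to 172667431, inside SLC25A12, holds a coding exon and a transcript start of that gene, and scored 8.66, 9.55 and 10.55. SLC25A12 lies on the minus strand, and its gene record starts at 172864766, outside every fragment called with DLX1 or DLX2. The intergenic fragment from 172458639 to 172459867, at 510 kb, scored 9.06, 9.89 and 9.54, with the lowest SD of the 5 (0.417). The 2 short intronic fragments of DYNC1I2 printed above scored 7.56, 9.23 and 11.56 (the 165 bp fragment) and 12.59, 7.34 and 8.25 (the 247 bp fragment). These 5 means run from 9.39 to 9.85, and the replicate scores of each overlap those of the others. The promoter fragment of DYNC1I2, from 172543827 to 172548319, was called with DLX2 at 8.63, 10.42 and 6.45, as that of DYNC1I1 was with DLX6.

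DLX1 was called with 3 fragments in all 3 replicates, all within SLC25A12 and 278 to 293 kb away. The fragment from 172664112 to 172667431 scored 6.46, 10.23 and 6.96, that from 172667432 to 172672114 scored 5.16, 5.05 and 8.64, and that from 172654218 to 172655951 scored 5.59, 6.29 and 6.95. The first and second of these were contacted by DLX2 in all 3 replicates too, and the mean was higher with DLX2 at both, 9.59 against 7.88 and 8.25 against 6.28, with overlapping replicate scores. In DYNC1I2 DLX1 had 9 contacts, none of them in all 3 replicates, whereas DLX2 had 16, of which 7 were in all 3. Over the union both genes contacted 13 fragments, which is 54.2% of the DLX1 list and 36.1% of the DLX2 list.

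The promoter fragment of DLX1 needs a reservation. It is chr2:172946170-172950208 and holds 2 of the 7 annotated starts of DLX1. The other 5 lie beyond a HindIII site, in a fragment that no called contact includes. The capture was designed on an older annotation than the one used here, and whether this fragment was captured is not known, so its lack of calls does not show a lack of contacts and the DLX1 count covers only part of its starts. The RefSeq promoter of DLX1, a window of 250 bases before to 50 after its start from a table on GRCh38 that matched GRCh37 at 1 place, chr2:172949985-172950284, holds this site, in capitals below.
DLX1 promoter: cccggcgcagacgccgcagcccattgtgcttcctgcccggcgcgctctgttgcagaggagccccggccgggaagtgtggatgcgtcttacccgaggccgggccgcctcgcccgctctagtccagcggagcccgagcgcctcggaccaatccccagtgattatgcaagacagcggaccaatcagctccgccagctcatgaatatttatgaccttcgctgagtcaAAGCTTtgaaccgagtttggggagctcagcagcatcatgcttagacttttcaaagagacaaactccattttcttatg
Of the window, 224 bases lie in the promoter fragment and 76 outside it. The motif AAGCTT, which reads the same on both strands, occurs in 5.84% of the 35116 promoter windows of the table. The windows of DLX2 and DLX6 lie wholly inside their promoter fragments. Whether the cut within the promoter lowers the number of DLX1 contacts was not tested.

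DLX1 also had contacts with the HOXD cluster, about 4 Mb away on the other side, none of them in all 3 replicates. The fragment with the HOXD13 start, a gene for limb and digit patterning, was called with DLX1 in replicate 1 at 10.92 and with DLX2 in replicate 2 at 7.58. The HOXD12 fragment was called with DLX1 in replicates 1 and 3 at 6.03 and 7.33, the fragment with starts of HOXD10 and HOXD11 in replicates 1 and 2 at 7.22 and 5.43, and the HOXD3 fragment in replicate 2 at 5.46. DLX1 was further called in replicate 1 at 5.34 with the promoter fragment of SP9, a transcription factor gene of the same interneuron programme, over 2254 kb. With a contact of DLX2 in ITGA6, called in replicate 2 at 5.49, these make up the 7 DLX contacts towards higher coordinates. On the merged calls 0 of these 7 were called. DLX2 was called there with the fragment that adjoins its ITGA6 contact, from 173322334 to 173335974, at 5.27. That fragment holds a start of ITGA6 and was called with DLX2 in no single replicate. HAT1 and METAP1D, which lie between the pair and its contacts in all 3 replicates, were not contacted in all 3.

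Between DLX1 and DLX2 lie 2 further promoter fragments of the series, and these were most like the DLX genes in what they contacted. The one with the start of ENSG00000289413 shared 23 fragments with DLX2 and 16 with DLX1, or 44.2% and 34.0% of the fragments contacted by either of the 2 promoters. The other holds no annotated start and shared 14 with DLX2 (29.2%) and 13 with DLX1 (35.1%). By the same measure DLX1 and DLX2 were alike at 27.7% and DLX5 and DLX6 at 55.6%. Beyond DLX5, the promoter fragment most like DLX6 was that of ASNS, the asparagine synthetase gene, on the far side of the pair, with 12 shared fragments (19.4%). ASNS shared 10 fragments with DLX5 (13.2%). A promoter fragment without an annotated start, chr7:96743050-96746650, shared 9 with DLX6 (12.3%) and 8 with DLX5 (9.30%), and SEM1 shared 4 with DLX6 (8.89%) and 3 with DLX5 (5.17%).

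DLX3 and DLX4 were the most unlike members of a pair. DLX3, at chr17:48064697-48075187, had 16 contacts in all 3 replicates. DLX4, at chr17:48037206-48050364 and with all 7 of its annotated starts inside this fragment, had none. DLX4 lies between DLX3 and everything that DLX3 contacted.

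The DLX3 contacts in all 3 replicates lay 102 to 439 kb away, with a median of 139.6 kb against 282 kb for DLX1, 402 kb for DLX2, 1024 kb for DLX5 and 1076 kb for DLX6. Its highest contact, the intergenic fragment from 47932290 to 47939025 between TAC4 and DLX4, scored 30.77, 29.27 and 29.39, a mean of 29.8 ± 0.834 (SD, n = 3) at 134 kb. This was the highest mean of any DLX contact in all 3 replicates, with the DLX5 contact at DYNC1I1 exon 15 next at 28.4 ± 3.07 (SD, n = 3), and the 2 overlap in their replicate scores. The adjoining fragment from 47930948 to 47932289 scored 18.07, 17.34 and 18.28, and the next, from 47927324 to 47930947, scored 12.99, 13.72 and 12.71. The fragment after these, from 47920747 to 47927323, holds the start of TAC4, a tachykinin precursor gene, and scored 18.66, 12.17 and 13.08. Together 10 adjoining fragments from 47920747 to 47971260 were contacted by DLX3, all of them in all 3 replicates.

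Beyond KAT7 and FAM117A, which had no contact in all 3 replicates, DLX3 contacted the promoter fragments of SLC35B1, which encodes a nucleotide sugar transporter family member. The larger one, from 47779472 to 47786013, scored 20.33, 19.38 and 16.53, a mean of 18.7 ± 1.98 (SD, n = 3) at 287 kb. The smaller one, from 47786088 to 47787286, scored 9.29, 8 and 8.61. Beyond SPOP, which also had no contact in all 3 replicates, came NXPH3, a gene for a secreted neurexophilin. Its fragments from 47653701 to 47657704 and from 47650838 to 47653700 scored 15.35, 9.25 and 12.99 and 10.6, 11.45 and 7.28, at 414 and 418 kb. In all, 6 of the 16 fragments that DLX3 contacted in all 3 replicates were promoter fragments, against 1 of 27 for DLX5 and DLX6 together and 2 of 13 for DLX1 and DLX2. The share over the whole series was not counted, so none of these can be called high or low. The promoter fragment of SLC35B1 from 47786088 was also the one whose contacts were most like those of DLX3, with 9 shared (27.3%), followed by one of NXPH3 with 7 (21.9%).

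DLX4 was called with 2 fragments, each in 1 replicate and neither on the merged replicates. One was the NXPH3 promoter fragment from 47650838 to 47653700, in replicate 2 at 6.71 over 392 kb. The other was the intergenic fragment from 47960461 to 47961683, in replicate 3 at 5.34 over 82.7 kb. DLX3 contacted both in all 3 replicates, the second at 11.56, 10.73 and 11.4, so the 2 shared fragments are 100% of the DLX4 list and 8.70% of the DLX3 list.

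**Figure D4:**
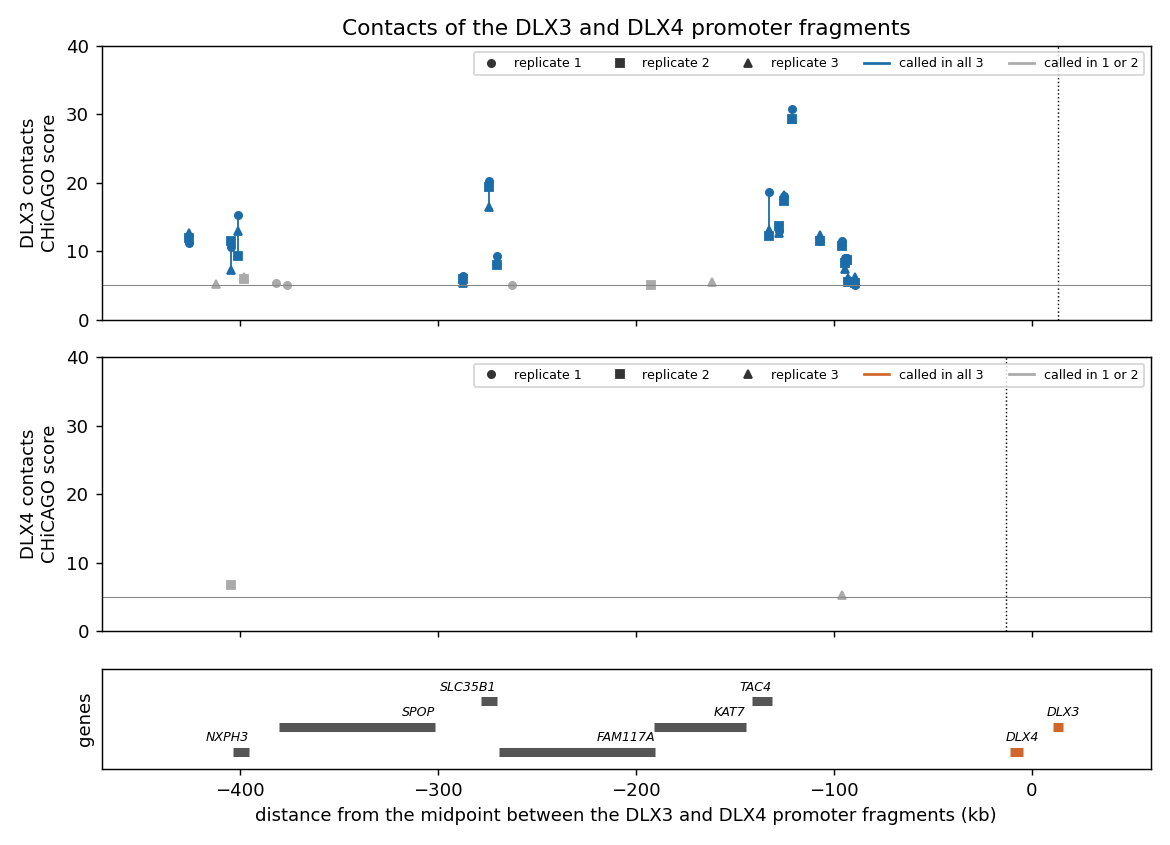
CHiCAGO score of each contact of DLX3 (top) and DLX4 (middle) against its distance in kb from the midpoint between both promoter fragments, with the genes drawn to scale (bottom). Symbols are replicates, coloured where all 3 called the contact and grey where 1 or 2 did, and the horizontal line marks the score of 5. The DLX3 contacts in all 3 replicates stand in 3 groups near TAC4, SLC35B1 and NXPH3, and DLX4 has 2 grey points.

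Over the whole family the contacts touched 133 distinct fragments, of which 17 were promoter fragments. By annotation 70 of the 133 were intronic, 28 held a coding exon, 29 were intergenic and the other 6 held exon sequence outside a coding region. The pairs differed here for the fragments contacted in all 3 replicates. At DLX5 and DLX6 21 of 27 were intronic and 3 held a coding exon, at DLX1 and DLX2 6 of 13 were intronic and 4 held a coding exon, and at DLX3 11 of 16 were intergenic and none was intronic. Shares of promoter, intronic, exonic and intergenic fragments over the whole series were not counted.

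Genes known to act with the DLX genes were also counted. Of 20 such genes, 19 had a promoter fragment with a contact and 15 had a contact in all 3 replicates, against 9901 of the 19075 promoter fragments of the series. All 3 genes listed for the endothelin route of the jaw, in which DLX5 and DLX6 act, had one. These were EDN1, the ligand, with 10 contacts in all 3 replicates, MEF2C, a transcription factor downstream of it, with 6, and HAND2, a target in the jaw that also acts in the heart, with 44. Of 7 genes of skin, teeth, limb and bone, 4 had a contact in all 3 replicates, and MSX1, RUNX2 and TP63 had none. Of 10 genes of the forebrain interneuron programme 8 had one, from 1 for GSX1 and GSX2 to 23 for GAD1, which encodes an enzyme of GABA synthesis. LHX6 and GAD2 had none.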

How the data were processed

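The analysis started from 4 sets of PCHi-C calls in hESC-CMs, 1 for each of 3 biological replicates and 1 for the replicates merged. The deposited files give a CHiCAGO score for each pair of HindIII fragments, which the authors computed with the default settings of CHiCAGO after mapping the reads to GRCh37 with HiCUP. Scores start at 5 and have 2 decimals. The merged score is the authors' pooled value.

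Contacts were taken as unordered pairs over the union of the replicates, and 0 DLX contacts were listed in both orders. A mean score and SD are over the replicates that called the contact. Distances are between midpoints. Genes and exons came from GENCODE 44 on GRCh37, and exons of DYNC1I1 are numbered on 1 transcript of the gene. Contacted fragments of a pair less than 10 kb apart formed 1 stretch. Likeness of promoter fragments is the shared share of all fragments that either contacts.

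With 1 condition no test was made. Shares have Wilson intervals. The counting was tested on simulated data with known answers. Genes named beside the 6 members are those whose starts or bodies the contacts reach or that lie between, and the 5 contacts per gene with the highest mean score in all 3 replicates are described. The members and lists were chosen with earlier results of these data known. Python 3.11.15, numpy 2.4.6, scipy 1.17.1 and matplotlib 3.10.9 were used. Alternatives were higher score minimums, each replicate left out, the merged calls, matching within 5 kb, contacts up to 1 Mb, and other ways of counting promoter fragments and orders.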

Additional observations from a re-analysis of the deposited data

How the results depend on the processing

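The number of DLX contacts fell from 183 to 97 at a score of at least 7 and to 46 at a score of at least 10, and lay between 149 and 163 with a replicate left out. The share in all replicates used, 41.5%, lay between 50.3 and 58.4% with a replicate left out, where only 2 remain to be shared, and was 69.4% when a called fragment within 5 kb counted as the same contact. The median distance of 902 kb was 596 kb on the merged calls and 419 kb over contacts of at most 1 Mb, the latter by construction. It lay between 900.1 and 923 kb with a replicate left out.

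Shares of fragments contacted by both members of a pair also moved. For DLX1 the share rose from 54.2% to 81.8% on the merged calls, and for DLX2 it was 14.3% instead of 36.1% at a score of at least 10. For DLX3 it was 0% at scores of at least 7 and at least 10 and on the merged calls, and 4.55 to 10.0% with a replicate left out. DLX4 had no contact left under the first 3 of these settings. For DLX5 it was 58.8% at a score of at least 7, 38.9% at a score of at least 10 and 81.8% on the merged calls, and 63.6 to 68% with a replicate left out. The share for DLX6 moved by less than the spread between replicates under each alternative. The causes were not tested.

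No groups were compared, so no paired test was made and no result comes from a test. Numbers of contacts and scores of different DLX genes are compared within each replicate. Contacts scoring under 5 are not listed, so the calls cannot show that a DLX promoter lacks a contact.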

Other observations

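On the merged replicates DLX3 had 43 contacts, of which 20 were called in no single replicate. These 20 scored from 5.06 to 7.14, and they included fragments of KAT7, FAM117A and SPOP, between its 3 groups of contacts. DLX6 had 7 such contacts, DLX2 had 4, DLX5 had 2, DLX1 had 1 and DLX4 had 0. One of those of DLX2 was with the promoter fragment of ENSG00000289413 between DLX1 and DLX2, at 5.32.

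Each fragment contacted by a DLX promoter in all 3 replicates was searched on both strands for AGGGGGCGC, a core of the motif of the architectural protein CTCF. It was found in 1 of 56 (1.79%), the NXPH3 promoter fragment contacted by DLX3. The share was 2.02% of 21761 called fragments on the same chromosomes, between the shortest and longest of the 56 in length. Those fragments were longer, with a median of 2349 bp against 1701 bp, so the 2 shares are not matched for length. These letters alone do not describe all CTCF sites.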
